A study of Mus musculus with 6 samples.

Results

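The interferon-stimulated genes are the transcripts that cells switch on when interferon binds its receptors. In the set studied here there were 35 of them, chosen by name from genes known to respond to interferon, and all 35 were found among the 49315 genes of the count files and passed the low-count filter that left 23989 genes for testing. The RNA came from tumour endothelium, and the tumours were grown from 4T1, a mouse breast cancer line that can be transplanted. Female Balb/c mice received 4T1 cells in the inguinal mammary fat pad at 8 weeks of age, and at 10 weeks, with tumours 2 weeks old, a tail vein injection of 1E12 gold nanoparticles, 50 nm across, coated with 5K mPEG and carrying the dye Cy5. At 1 hour after injection the tumours were digested, cells with the leukocyte marker CD45 were depleted, cells with the endothelial marker CD31 were selected, and flow cytometry divided them into a nanoparticle-positive (NP+) and a nanoparticle-negative (NP-) fraction. Each of 3 tumours, labelled MET-106, MET-107 and MET-108, gave 1 NP+ and 1 NP- library, so both fractions come from injected, tumour-bearing animals. No genotype beyond the Balb/c strain is labelled, and no library used here came from an animal without nanoparticles.

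Type I interferons (alpha and beta) signal through the receptor chains encoded by Ifnar1 and Ifnar2 to a transcription factor complex with STAT2 and IRF9, which binds the interferon-stimulated response element of target promoters. Type II interferon (gamma), released mainly by T cells and natural killer cells, signals through Ifngr1 and Ifngr2 to the gamma-activated site of target promoters, and it induces IRF1 and large GTPases with particular strength. The products sense foreign nucleic acid, block viral replication, tag proteins with ISG15 and attack membranes around intracellular pathogens. In endothelium, interferon signalling is known for restraining vessel growth and for raising leukocyte-recruiting chemokines and antigen presentation.

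The promoters show what many of these genes share apart from their name. RefSeq promoter windows on GRCm38.p6, from 250 bases before to 50 bases after the start site, were matched by symbol for 25 of the 35 genes (29 windows). The core of the interferon-stimulated response element was searched as GAAANNGAAA on both strands, so that it reads TTTCNNTTTC on the reverse strand. It was present in 16 of the 29 windows (55.2%), against 3.44% of all 32851 promoter windows. The gamma-activated site core, searched as TTCNNNGAA, was in 9 of the 29 windows (31%), against 8.3% of all windows. Its letters read the same on both strands, and a match of either core may overlap a match of the other. All 5 GTPase genes with a window held the response element core, as did 3 of 3 sensor genes and 6 of 8 antiviral effector genes. It was in 1 of 4 transcription factor genes, 1 of 2 ISG15 and ADP-ribosylation genes and 0 of 3 other induced genes, and so in 16 of the 25 genes. The gamma-activated site core was in 2 of the 5 GTPase genes and in 9 of the 25 genes. A match of letters describes the sequence and does not show that a factor binds there. The stretches below lie before the start site in 6 of these promoters, 4 of them from Isg15 and antiviral effector genes and 2 from GTPase genes, to show how the number and spacing of the cores vary, with the response element cores in capitals. Each is printed 5′ to 3′ in the direction of its gene.
Isg15 (chr4:156200855-156200916, minus strand): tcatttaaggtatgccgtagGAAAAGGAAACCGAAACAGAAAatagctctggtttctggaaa
Ifit1 (chr19:34640765-34640833, plus strand): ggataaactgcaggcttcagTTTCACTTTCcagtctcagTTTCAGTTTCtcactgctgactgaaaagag
Ifit3 (chr19:34583353-34583436, plus strand): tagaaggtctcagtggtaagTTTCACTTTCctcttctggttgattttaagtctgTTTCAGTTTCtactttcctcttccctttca
Bst2 (chr8:71537567-71537622, minus strand): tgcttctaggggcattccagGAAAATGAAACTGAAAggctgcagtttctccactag
Gbp7 (chr3:142530263-142530312, plus strand): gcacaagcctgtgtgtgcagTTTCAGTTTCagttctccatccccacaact
Igtp (chr11:58199502-58199551, plus strand): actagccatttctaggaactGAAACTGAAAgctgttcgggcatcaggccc
Isg15 held 3 overlapping cores, Bst2 2 overlapping cores, Ifit1 and Ifit3 2 separate ones each, and Gbp7 and Igtp 1 each.

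The libraries held 20856410 to 58089600 gene counts. Levels are in CPM, counts scaled to library size with TMM factors, and a value with ± is the mean and SD of a fraction (n = 3). Pecam1, the CD31 gene, stood at 2815 to 3812 CPM in NP+ and 1931 to 2825 CPM in NP- libraries, and Ptprc, the CD45 gene, at 3.71 to 5.61 and 5.89 to 25.7 CPM. The MET-106 NP- library stood apart: 6 fibroblast markers summed to 3769 CPM there, against 13.4 to 128 CPM in the other 5 libraries, 6 mural markers to 703 CPM, against 14.9 to 197, and 6 epithelial markers to 565 CPM, against 7.85 to 30.0. Mitochondrial genes took 3.90% of its counts, against 1.009% to 1.498% in the other 5. Its 10 endothelial markers summed to 6025 CPM, below the 8029 to 11825 CPM of the others. The MET-107 NP- library had the most lymphatic marker RNA, 1761 CPM against 255 to 733 in the other NP- libraries and 399 to 457 in NP+. In sorted bulk samples fewer cells of a kind and less RNA per cell cannot be told apart. Counts that move are given below without single libraries as well.

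The interferon-stimulated genes were expressed in both fractions, and none of the 35 passed the test between them. Of the 35 genes, 0 had an adjusted p under 0.05 with edgeR's quasi-likelihood test over all 23989 genes, where 0.0292% of genes did, and the adjusted p ran from 0.156 for Irgm1 to 0.994 for Ifi35. With an unadjusted p under 0.05, 3 genes stood higher in NP+ (Parp9, Parp14 and Irgm1), against 8.01% of all genes, and 0 were lower, against 15.4%. With the tumour as a block, 0 of 35 passed (lowest adjusted p = 0.199, with 0.0625% of all genes called). In that fit 2 genes were higher (Irgm1 and Ifi44) and 1 lower (Mx1) at an unadjusted p under 0.05, against 7.85% and 14.6% of all genes. DESeq2 called 14.9% of the genes it adjusted, and 0 of the 35 (lowest adjusted p = 0.0719, for Irgm1), with 5 higher and 0 lower at an unadjusted p under 0.05. The share of all genes at that unadjusted threshold is not given for DESeq2, so these 5 are not read as a result. Of the genes with an adjusted p in the authors' deposited table, 13.2% were under 0.05, and 0 of the 35 were (lowest 0.0655, for Irgm1). At an unadjusted p under 0.05 the authors' deposited table had 4 of the 35 higher in NP+, against 8.88% of its genes, and 0 lower, against 20.2%. The 3 genes of the edgeR test became 0 when either library of tumour MET-107 was left out.

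A missed threshold does not show equal levels, so the intervals were examined. For 23 of the 35 genes the 95% interval of the log2 fold change lay wholly within a 2-fold difference in either direction, against 24.0% of all genes tested and 47.6% of the 12047 genes with a mean level in the range of these genes (3.12 to 1959 CPM). Here and below, the ends of that range are set by Mx1 and Ifitm3, and the median level of the 35 genes was 110 CPM. Genes in the range were not matched to the 35 in level, and intervals depend on level. Neither the 23 nor its counts by role below are therefore read as a trait of these genes. The count of 23 was 7 without the MET-108 NP+ library and 13 without that of tumour MET-106. The narrowest intervals were those of Irf9, Parp9 and Stat2, and the widest by far was that of Mx1. The median log2 fold change of the 35 genes was 0.26, NP+ over NP-, with 28 genes above 0 and 7 below. The median was -0.29 over all genes tested and 0.21 over the genes in the same range of levels. Scaling moved this value: with total counts the median of the 35 was -0.03 and that of all genes -0.59, and with upper-quartile scaling they were 0.01 and -0.53. With only genes of at least 5 CPM in 3 libraries they were 0.00033 and -0.02. A change of scaling moves all genes together, so the sign of the median is not read as a result here. Its distance from the median of all genes changed little with scaling. That distance shrank with the filter of 5 CPM, which changes the genes compared, so it is not read as a result either.

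**Figure D1:**
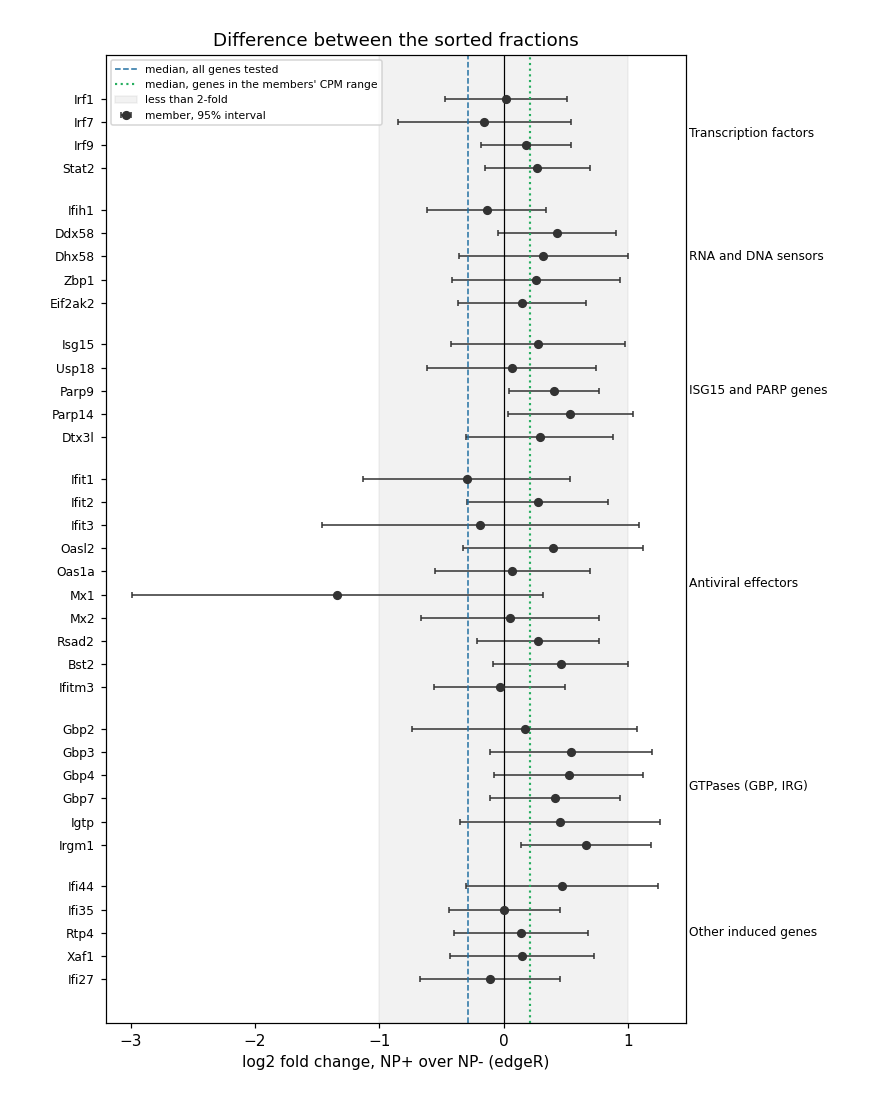
log2 fold change of each of the 35 genes, NP+ over NP- (edgeR), with 95% intervals, in rows grouped by role; the dashed line is the median of all genes tested (-0.29), the dotted line that of genes in the same range of levels (0.21), and the grey band marks less than 2-fold. The intervals of 23 genes lie within the band, and Mx1, at the far left, has the widest.

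All 4 transcription factors had an interval within 2-fold, against 47.6% of genes in the range of levels of the 35 genes. Irf1 (chromosome 11, 53770014 to 53778374, plus strand, on GRCm38 like all gene positions here), the factor that interferon gamma induces most directly, had the highest level per kilobase of exon among the 4, 77.4 CPM per kb over the 6 libraries. In the order MET-106, MET-107 and MET-108, which all lists of library values below follow, it measured 288, 340 and 300 CPM in NP+, against 269, 247 and 402 CPM in NP-. The fractions overlapped, and the highest library was MET-108 NP-. Its log2 fold change was 0.02 (SE 0.22, edgeR adjusted p = 0.969). Irf9, the DNA-binding subunit of the type I complex, measured 113, 112 and 99.9 CPM in NP+, against 97.5, 99.5 and 90.7 CPM in NP-. All 3 NP+ libraries lay above all 3 NP- libraries, but by little, with a log2 fold change of 0.18 (SE 0.16, edgeR adjusted p = 0.495). Such separation with NP+ higher was found in 4 of the 35 genes and with NP+ lower in 0, against 13.3% and 15.6% of all genes tested. Stat2, the other specific subunit of that complex, stood at 139 ± 14.0 CPM in NP+ and 116 ± 19.0 in NP-. Irf7, the factor that amplifies interferon alpha production, stood at 147 ± 39.5 and 163 ± 64.6 CPM, with its highest level, 238 CPM, in the MET-106 NP- library.

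Sensors of foreign RNA and DNA gave 5 of 5 intervals within 2-fold, against the same 47.6% of genes in the range of levels. Ddx58 (chromosome 4, 40203773 to 40239828, minus strand) encodes RIG-I, a receptor for viral RNA ends. It measured 179, 122 and 120 CPM in NP+, against 101, 117 and 94.9 CPM in NP-. All NP+ libraries were above all NP- libraries, most clearly in tumour MET-106. The edgeR log2 fold change was 0.43 (SE 0.21, edgeR adjusted p = 0.249). The related receptor genes Ifih1, for long double-stranded RNA, and Dhx58, a regulator of the other receptors, stood at 34.7 ± 4.45 against 38.2 ± 5.51 CPM and at 35.8 ± 10.2 against 28.7 ± 8.97 CPM. Dhx58 was higher in NP+ in 3 of 3 tumours, by 0.28, 0.35 and 0.34 on the log2 scale. Zbp1, a sensor of Z-form nucleic acid that can start necroptosis, and Eif2ak2, the kinase PKR that stops translation on double-stranded RNA, stood at 41.0 ± 12.9 against 34.3 ± 9.83 CPM and 76.9 ± 11.7 against 69.4 ± 17.7 CPM. Among the 35 genes 8 were higher in NP+ in 3 of 3 tumours and 1 (Mx1) lower, against 20.0% and 30.2% of all genes tested.

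The ISG15 and ADP-ribosylation genes held 2 of the 3 genes with an unadjusted p under 0.05. Parp9 (chromosome 16, 35938470 to 35972605, plus strand) and Dtx3l, which share a promoter region and encode a complex that marks histones and viral proteins, lie head to head and share 458 exon bases, so the counts at that end cannot be divided between them without strand. Parp9 measured 148.4, 136 and 124 CPM in NP+, against 101, 101 and 106.6 CPM in NP-. The fractions did not overlap, and the spread within each was small. This gave a log2 fold change of 0.40 (SE 0.16, unadjusted p = 0.0338, edgeR adjusted p = 0.184, and 0.273 with the tumour as a block). Parp14 (chromosome 16, 35832874 to 35871544, minus strand), a mono-ADP-ribosyltransferase next to them, measured 184, 147 and 123 CPM in NP+, against 85.3, 101 and 128 CPM in NP-. The difference lay in tumours MET-106 and MET-107 (1.10 and 0.54 on the log2 scale) and not in tumour MET-108 (-0.05). Its log2 fold change was 0.53 (SE 0.22, unadjusted p = 0.0401, edgeR adjusted p = 0.197, and 0.267 with the tumour as a block). Dtx3l itself stood at 127 ± 14.5 against 104 ± 37.7 CPM and reached its highest value, 145 CPM, in the MET-108 NP- library.

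Isg15 and Usp18 form the other pair of this group. Isg15 (chromosome 4, 156199424 to 156200818, minus strand), the ubiquitin-like modifier whose promoter stretch is printed above, measured 36.0, 45.3 and 23.3 CPM in NP+, against 38.2, 25.8 and 22.5 CPM in NP-. The fractions overlapped, and the lowest value of each came from tumour MET-108. The edgeR log2 fold change was 0.27 (SE 0.31, edgeR adjusted p = 0.588). Usp18, the protease that removes ISG15 and also damps the type I receptor, stood at 61.9 ± 12.1 against 59.3 ± 24.7 CPM.

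Among the 10 antiviral effectors the median log2 fold change was 0.06, with 6 above 0 and 4 below. Ifitm3 (chromosome 7, 141009586 to 141010770, minus strand), a membrane protein that blocks virus fusion, was by far the most abundant of the 35 genes. At 2889 CPM per kb it ranked 7 among all genes tested. It measured 1856, 2214 and 1738 CPM in NP+, against 2596, 1840 and 1508 CPM in NP-. The fractions overlapped, and the log2 fold change was -0.03 (SE 0.23, edgeR adjusted p = 0.936), with a 95% interval from -0.56 to 0.49. Bst2, or tetherin, which holds budding virus at the cell surface, stood at 76.7 ± 22.9 against 55.9 ± 6.18 CPM and was higher in NP+ in 3 of 3 tumours (adjusted p = 0.275 with edgeR). Rsad2, or viperin, stood at 63.1 ± 13.8 against 52.2 ± 5.57 CPM, Oasl2 at 125 ± 27.8 against 94.5 ± 42.6 CPM, and Oas1a, an RNase L activator, at 49.4 ± 10.2 against 47.1 ± 15.4 CPM.

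The Ifit genes, which encode proteins that bind foreign RNA, lie together on chromosome 19, and their values in the 2 fractions overlapped. Ifit3 (34583531 to 34588731, plus strand) measured 18.8, 27.8 and 15.7 CPM in NP+, against 48.5, 11.7 and 10.8 CPM in NP-. The MET-106 NP- library was the highest and the other 2 NP- libraries the lowest, a span of 4.49-fold. Ifit1 (34640871 to 34650009, plus strand) measured 34.1, 36.6 and 20.2 CPM in NP+, against 57.1, 31.7 and 23.0 CPM in NP-, with the same library highest. Ifit2 stood at 55.6 ± 8.43 against 46.1 ± 13.0 CPM. The log2 fold change of Ifit3 was -0.19 (SE 0.56, edgeR adjusted p = 0.845), and it was 0.94 (SE 0.31, adjusted p = 0.0874) when the NP- sample of tumour MET-106 was left out. Ifit1 and Ifit3 were singled out after their values were seen, and near-identical relatives such as Ifit3b make their counts uncertain.

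Mx1 and Mx2 encode dynamin-like GTPases that trap viral nucleocapsids, and in Balb/c, as in most inbred mouse strains, Mx1 carries a defective allele. Mx2 stood at 16.4 ± 3.14 CPM in NP+ and 15.8 ± 4.79 in NP-. Mx1 (chromosome 16, 97447035 to 97462907, minus strand) was the lowest of the 35 genes, at 0.659, 2.17 and 2.46 CPM in NP+, against 1.84, 7.65 and 3.94 CPM in NP-. It was lower in NP+ in 3 of 3 tumours, yet the fractions overlapped, and the log2 fold change was -1.34 (SE 0.73, edgeR adjusted p = 0.287). Counts in 1405 olfactory receptor genes, which endothelial cells are not known to use, were also denser in the MET-107 and MET-108 NP- libraries, at 0.422 and 0.337 CPM per kb, than in the other libraries, at 0.0327 to 0.100. Mx1 stood at 3.21 to 11.6 times that density in the same library. The part of this background in the Mx1 values was not tested.

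**Figure D2:**
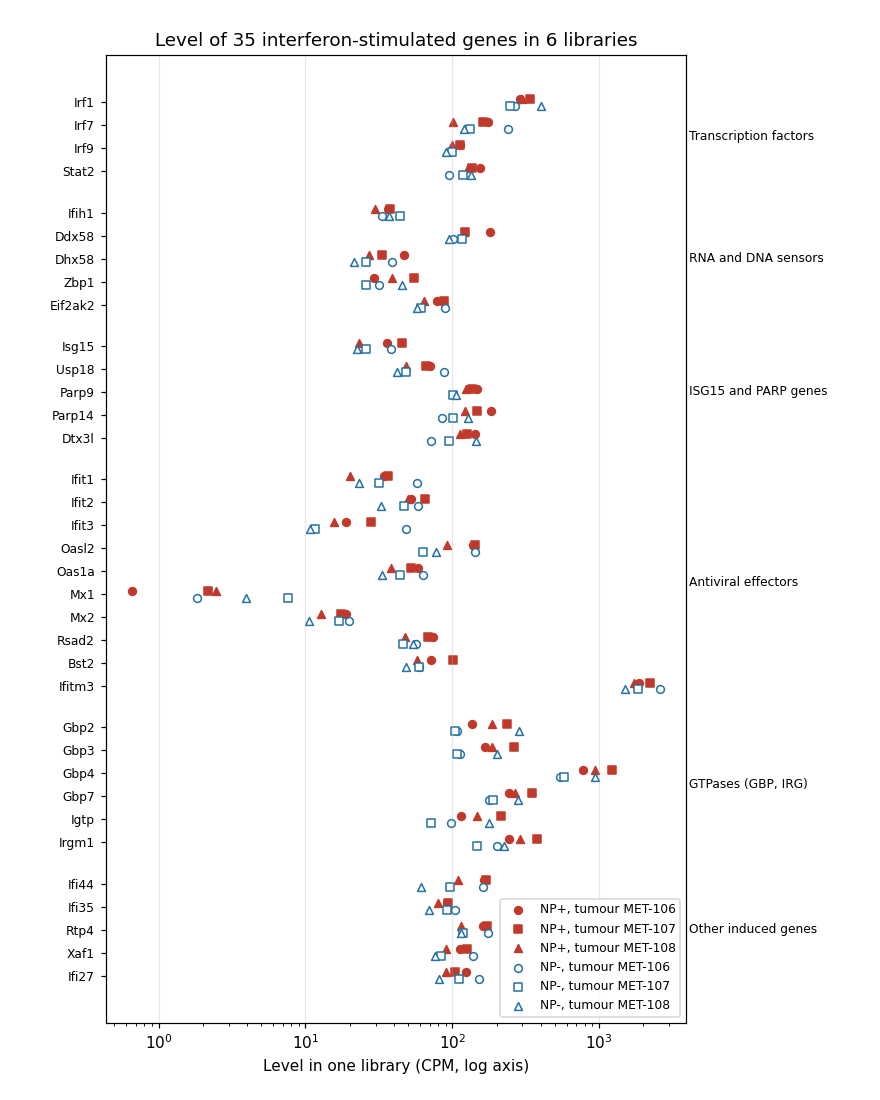
Level of each of the 35 genes in every library (CPM, log axis), in rows grouped by role; filled red symbols are NP+, open blue symbols NP-, and the shape gives the tumour. Ifitm3 lies between 1508 and 2596 CPM and Mx1 between 0.659 and 7.65 CPM, and red and blue symbols overlap in 31 rows.

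The GTPases had the highest median log2 fold change of the 6 roles, 0.49, with 6 of 6 above 0. Of the 6, 1 had an interval within 2-fold, against 47.6% of genes in the range of levels of the 35 genes. These guanylate-binding proteins (Gbp2, Gbp3, Gbp4 and Gbp7) and immunity-related GTPases (Igtp and Irgm1) act in defence against intracellular pathogens and are classic targets of interferon gamma. Irgm1 (chromosome 11, 48861968 to 48871683, minus strand) had the smallest p of the 35 genes. It measured 244, 377 and 291 CPM in NP+, against 203, 147.8 and 226 CPM in NP-. The fractions did not overlap, and all 3 tumours had the same direction. This gave a log2 fold change of 0.66 (SE 0.23, unadjusted p = 0.0184), with an edgeR adjusted p of 0.156 and, with the tumour as a block, of 0.199. Gbp4 (chromosome 5, 105115767 to 105139586, minus strand), the most abundant of the group at 111 CPM per kb, measured 782, 1221 and 940 CPM in NP+, against 542, 574 and 936 CPM in NP-. Its MET-108 NP- library reached the NP+ levels, while the other 2 NP- libraries lay below them. Its log2 fold change was 0.52 (SE 0.26, edgeR adjusted p = 0.261).

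Igtp and the 3 Gbp genes on chromosome 3 complete the group. Igtp (chromosome 11, 58199556 to 58207591, plus strand) measured 115, 214 and 147 CPM in NP+, against 98.6, 71.1 and 178 CPM in NP-. The highest library was NP+ and the lowest NP-, both from MET-107. Gbp2 (142620602 to 142638008, plus strand) measured 137, 236 and 186 CPM in NP+, against 107.95, 104 and 286 CPM in NP-, so that its highest library was MET-108 NP-. Gbp3 stood at 205 ± 50.2 against 141 ± 53.0 CPM and Gbp7 at 286 ± 55.0 against 215 ± 55.3 CPM. Within tumours the median log2 difference of the 6 genes was 0.40 in MET-106, 1.23 in MET-107 and -0.09 in MET-108. NP+ was higher for 6, 6 and 2 of them, against 44.1%, 42.2% and 46.7% of all genes tested and 64.8%, 62.8% and 64.5% of genes in the same range of levels. Without the MET-108 NP- library, 9 of the 35 genes had an unadjusted p under 0.05 with NP+ higher, all 6 GTPase genes among them, against 10.0% of all genes. In that fit 0 passed over all genes (lowest adjusted p = 0.0816, for Gbp3, with 1.10% of genes called). The library left out is the NP- library with the most GTPase RNA, summed to 2106 CPM against 1242 in MET-106 and 1194 in MET-107. Leaving it out widens the difference of these genes by construction, so this count is no support for one. Igtp shares 162 exon bases with its neighbour Irgm2, and the Gbp genes are close relatives, so their counts are uncertain.

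**Figure D3:**
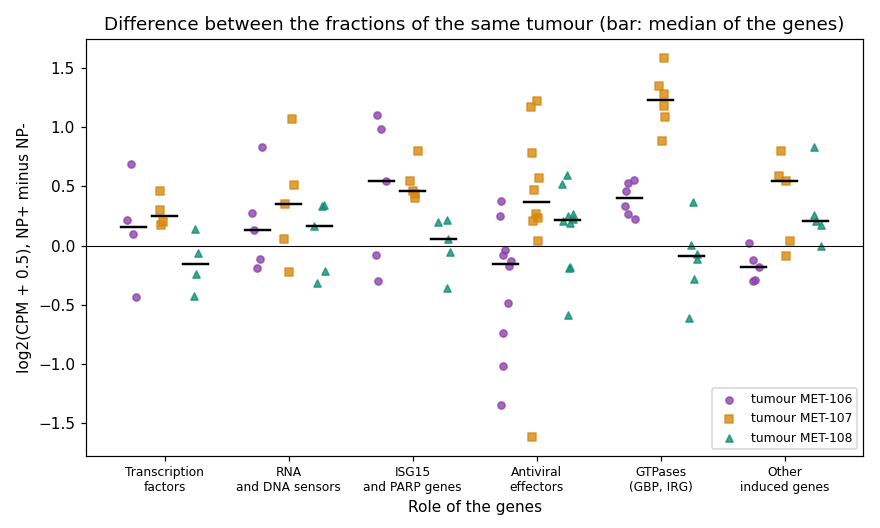
Difference in log2(CPM + 0.5) between the NP+ and NP- library of the same tumour, 1 point per gene, by role; the shape and colour give the tumour and the bar the median of the genes. The 6 GTPase genes lie at 0.88 to 1.58 in tumour MET-107 and at -0.61 to 0.37 in tumour MET-108.

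Of the remaining induced genes 4 of 5 had an interval within 2-fold, against 47.6% of genes in the range of levels of the 35 genes. Ifi27 (chromosome 12, 103434211 to 103440239, plus strand), a mitochondrial and nuclear envelope protein gene, had the highest level per length of this group, 75.3 CPM per kb. It measured 123, 104 and 91.3 CPM in NP+, against 152, 111 and 81.0 CPM in NP-. The fractions overlapped, and within each the order of the tumours was the same. The edgeR log2 fold change was -0.11 (SE 0.25, edgeR adjusted p = 0.795). Ifi35 stood at 88.5 ± 7.01 against 88.3 ± 17.2 CPM, Rtp4 at 150 ± 31.0 against 136 ± 34.5 CPM, and Xaf1, a gene linked to apoptosis, at 110 ± 17.7 against 99.2 ± 33.2 CPM. Ifi35 and Rtp4 share 290 and 296 exon bases with another gene, so their counts are uncertain. Ifi44 stood at 147.7 ± 32.9 against 106.8 ± 51.0 CPM and had the widest interval of the group (log2 fold change 0.47, SE 0.34). Ifi44 was among the genes with an unadjusted p under 0.05 in the fit with the tumour as a block (blocked adjusted p = 0.222).

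Across all 35 genes the libraries differed by tumour and fraction at once. The MET-106 NP- library was the highest of the 6 for 13 genes, among them Irf7, Usp18, Ifit1, Ifit3, Ifitm3, Oasl2 and Ifi27. MET-107 NP+ was the highest for 10, among them 5 of the 6 GTPase genes and Isg15, and MET-106 NP+ for 7. MET-108 NP- was the lowest for 16 genes, yet the highest for 3 (Irf1, Dtx3l and Gbp2). Within tumours NP+ exceeded NP- for 18 of 35 genes (51.4%) in MET-106, 32 (91.4%) in MET-107 and 20 (57.1%) in MET-108. Among genes in the same range of levels NP+ was higher for 64.8%, 62.8% and 64.5%. The medians of the 35 genes were 0.02, 0.47 and 0.14, while genes in the same range of levels had medians of 0.20, 0.20 and 0.22. The MET-106 NP- library is the one with the most fibroblast, mural and epithelial marker RNA, and with the largest mitochondrial share, and the part of either in its levels was not tested. Without it 7 genes stood higher in NP+ and 1 lower with unadjusted p under 0.05, against 12.3% and 22.4% of all genes, and 0 of 35 passed over all genes (lowest adjusted p = 0.0603, for Oasl2, with 8.35% of genes called). Leaving this library out removes the highest NP- value of the 13 genes above, so the 7 are no independent support for a difference.

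**Figure D4:**
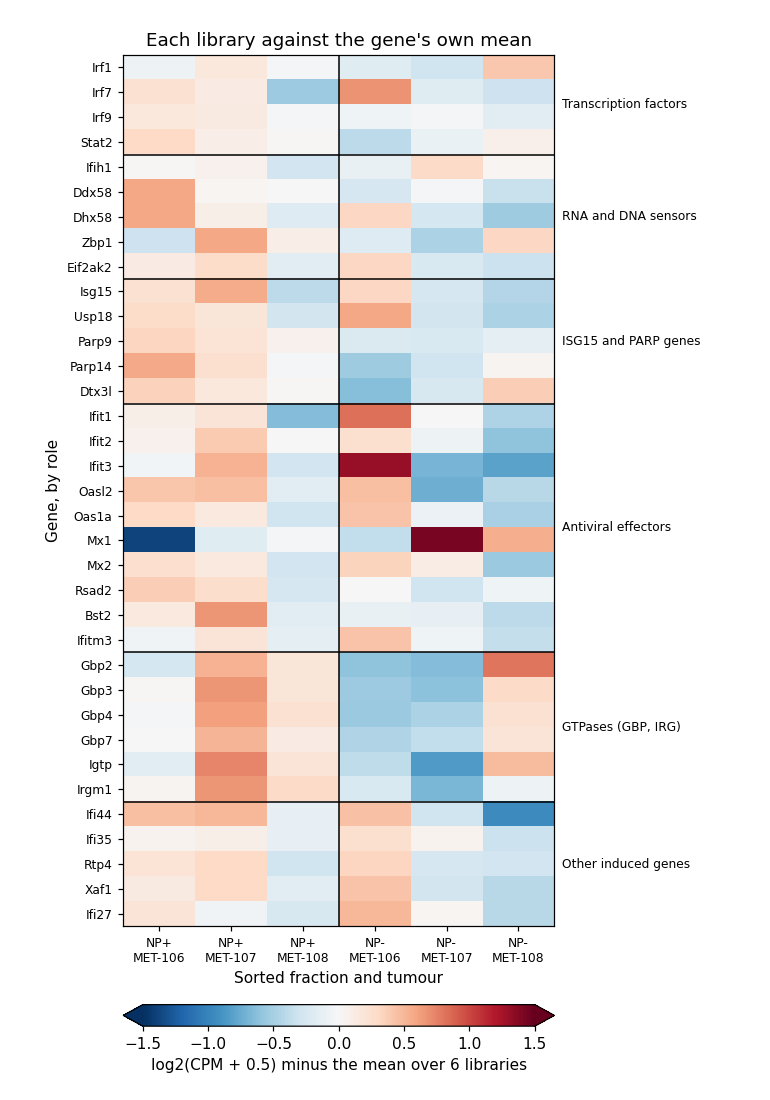
Difference of each library from the gene's own mean over the 6 libraries in log2(CPM + 0.5), red above and blue below the mean, with genes in rows by role and libraries in columns. The GTPase rows except Gbp2 are reddest in MET-107 NP+, and all 6 are blue in NP- of tumours MET-106 and MET-107, while Ifit1 and Ifit3 are reddest in MET-106 NP-.

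The spread between tumours was larger in NP- for most of the genes. The SD of log2(CPM + 0.5) over the 3 libraries had a median over the 35 genes of 0.32 in NP+ and 0.42 in NP-, and it was larger in NP- for 28 of them (80%). Among genes in the same range of levels the medians were 0.18 and 0.40, and 83.4% had the larger SD in NP-. Within NP+, 34 of the 35 genes were higher in tumour MET-107 than in tumour MET-108 (median difference 0.39, against 0.03 over all genes tested). The summed level of the 35 genes was 6348, 7658 and 5919 CPM in NP+, against 6457, 5103 and 5758 CPM in NP-. Their fractions overlapped.

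**Figure D5:**
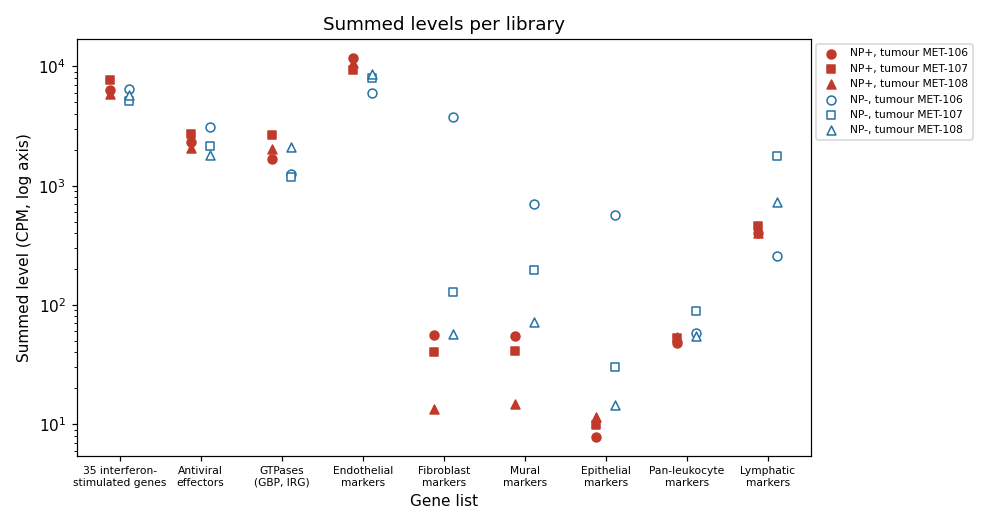
Summed level (CPM, log axis) of the 35 genes, of the antiviral effectors (mostly Ifitm3) and GTPases among them, and of marker lists of other cell types, per library; red filled symbols are NP+, blue open symbols NP-, and the shape gives the tumour. MET-106 NP- has 3769 CPM of fibroblast markers, while the sum of 6 pan-leukocyte markers lies between 47.6 and 88.4 CPM. That sum is mostly Laptm5 and Coro1a in NP+, but its largest term in MET-107 NP- is Ptprc, at 25.7 CPM. Ptprc, Cd53 and Cd52 in it are lower in all NP+ than in all NP- libraries, as are 15.6% of all genes tested. Laptm5 is higher in all NP+ libraries, as are 13.3% of all genes. Coro1a, higher in NP+ in 3 of 3 tumours, and Rac2 overlap between the fractions.

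Interferon transcripts themselves had few counts. Ifnb1, the interferon beta gene, had 3, 0 and 5 counts in NP+ and 7, 25 and 0 in NP-, and Ifng, the interferon gamma gene, 0, 4 and 1 against 3, 25 and 0. Neither passed the low-count filter. The 25 counts, both in MET-107 NP-, were 3.28 and 2.04 times the density of counts in olfactory receptor genes of that library. Of 15 ligand and receptor genes 7 were tested, 0 passed, and 3 were higher in NP+ at an unadjusted p under 0.05, against 8.01% of all genes. Ifngr2, a chain of the gamma receptor, measured 153, 132 and 123 CPM in NP+, against 106.8, 25.8 and 17.5 CPM in NP-. All NP+ libraries were above all NP- libraries, and the log2 fold change was 1.44 (SE 0.59, edgeR adjusted p = 0.191, and 0.102 with the tumour as a block). Ifngr1, the other chain, had a log2 fold change of 0.39 (SE 0.23). Ifnar1 and Ifnar2, the type I chains, had log2 fold changes of 0.75 (SE 0.30) and 0.48 (SE 0.25), and Il10rb, a chain shared by interferon lambda and interleukin-10 receptors, 0.59 (SE 0.18, adjusted p = 0.143 with edgeR).

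Signal transducers and sensors outside the 35 genes gave 0 adjusted calls as well. Of 15 transducers and regulators, 4 had an unadjusted p under 0.05 with NP+ higher, and 1 (Ptpn6) with NP+ lower, against 8.01% and 15.4% of all genes. Jak1, the kinase that serves both receptor types, measured 1074, 834 and 898 CPM in NP+, against 615, 566 and 356 CPM in NP- (log2 fold change 0.87, SE 0.23, edgeR adjusted p = 0.127). Irf8, a factor of myeloid cells that interferon gamma induces, stood at 93.7 ± 7.15 against 50.7 ± 17.5 CPM, Tyk2, a type I receptor kinase, at 50.6 ± 9.70 against 32.2 ± 5.12 CPM, and Ptpn1, a phosphatase that acts on these kinases, at 147 ± 13.3 against 91.0 ± 27.4 CPM. For each of these 4 genes the fractions did not overlap, as for 13.3% of all genes with NP+ higher. Of 14 tested sensing genes 2 had an unadjusted p under 0.05, both with NP+ higher, against 8.01% of all genes: Tlr3, a receptor for double-stranded RNA, at 70.1 ± 7.19 against 47.7 ± 9.86 CPM, and Tbk1, the kinase that activates IRF3, at 108.05 ± 10.6 against 79.6 ± 8.66 CPM. Samhd1, a nucleotide hydrolase, and Tmem173, the DNA-sensing adaptor STING, had log2 fold changes of 0.42 (SE 0.21) and 0.39 (SE 0.21).

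Further targets were listed by the interferon type they are usually assigned to. Of 42 other type I targets 1 was higher and 5 lower in NP+ at an unadjusted p under 0.05, where 8.01% and 15.4% of all genes were, with a median log2 fold change of 0.06. The 4 with the smallest p were Trim30d (0.237 ± 0.0978 against 4.01 ± 3.21 CPM), Ifi27l2a (7.63 ± 2.86 against 33.1 ± 21.98 CPM), Ifitm1 (2.05 ± 0.589 against 10.4 ± 10.3 CPM) and Trafd1 (85.8 ± 7.02 against 59.8 ± 2.97 CPM). The edgeR adjusted p of these 4 ran from 0.117 to 0.145. Of 30 other type II targets 8 were higher and 0 lower by the same measure, against the same shares, with a median of 0.48, against 0.21 for genes in the range of levels of the 35 genes, and 0 passed over all genes (lowest adjusted p = 0.0875 with edgeR). That gene was Icam1, a leukocyte adhesion gene that NF-kappaB also induces, with a log2 fold change of 1.25 (SE 0.22). Serpina3g, a protease inhibitor gene, stood at 297 ± 81.3 against 128 ± 46.1 CPM (adjusted p = 0.120). Cxcl10, which encodes a chemokine for activated T cells, measured 66.9, 170 and 64.8 CPM in NP+, against 58.5, 23.4 and 41.0 CPM in NP- (log2 fold change 1.30, SE 0.44, adjusted p = 0.155). Its MET-107 NP+ library stood well above the rest. In that tumour 30 of the 30 type II targets were higher in NP+ (median 1.29), against 21 in MET-106 and 17 in MET-108. Of genes in the range of levels of the 35 genes, 64.8%, 62.8% and 64.5% were higher in NP+ in MET-106, MET-107 and MET-108. These lists differ in level and in genes (the transducer and type II lists share members, Irf8 among them), come from the same libraries, and the difference between them was not tested.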

How the data were processed

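RNA from the 6 sorted libraries was made into cDNA with SMART-Seq v4, which marks neither strand nor molecules, and sequenced in pairs of 150 bp, as the labels' protocols say. Deposited were raw gene counts for each library. The submitters' processing notes name STAR 2.5.2b, Subread 1.5.2 with featureCounts, Trimmomatic 0.036 and DESeq2, on GRCm38 (mm10). For annotation release, strand and multi-mapping, nothing is given in the sources used here. The authors' deposited table gives a signal (count divided by a size factor), log2 fold changes of NP- over NP+, whose sign was turned here, and p-values. All of its 156426 signal values (100%) turned into whole reads (tolerance 0.01) that match the count files, and edgeR on those reads called 7 genes.

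Counts were tested with edgeR 4.0.16 (R 4.3.3, limma 3.58.1): quasi-likelihood test, TMM scaling, filterByExpr with a minimum count of 10, group as the only term, Benjamini-Hochberg adjustment over all genes, threshold 0.05. The SE is the log2 fold change divided by the square root of F, and 95% intervals use the t quantile of the same fit. DESeq2 1.42.0 was an alternative. The p-values of this fit rest on the spread between the 3 libraries of each fraction and treat the 6 libraries as independent. Differences between tumours and between sorts are not separated in that spread.

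The labels pair the libraries by tumour. Deviations of the NP+ and NP- library of a tumour correlated at 0.27, 0.21 and 0.04, and the blocked fit is an alternative.

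Members and lists were chosen with earlier results of these data known. All 35 members are named; full statistics go to those with an unadjusted p under 0.05, with fractions that do not overlap, or with the highest level per length of their role. Of each further list, the 4 genes with the smallest p and the receptors, Ifnb1, Ifng and Cxcl10 are named; 1 further gene of the rule is not reported here. The count of intervals within 2-fold was defined after seeing the data. Marker lists covered endothelial, leukocyte, macrophage, neutrophil, dendritic, lymphocyte, lymphatic, fibroblast, mural, epithelial, and platelet and erythroid cells. Macrophage markers summed to 17.5 to 28.6 CPM in NP+ and 42.8 to 123 in NP-, neutrophil markers to 4.75 to 7.18 and 7.43 to 85.5, and lymphocyte markers to 6.47 to 7.43 and 15.2 to 38.4. Dendritic markers summed to 59.0 to 59.9 in NP+ and 34.1 to 59.5 in NP-, and platelet and erythroid markers to 16.1 to 21.3 and 9.98 to 62.2 CPM. Zbtb46 made most of the dendritic sum in NP+, but 20.8 of 51.9 CPM in MET-108 NP-, where Ccr9 stood at 12.6 CPM. Flt3 and Cd209a were lower in all NP+ than in all NP- libraries, as were 15.6% of all genes tested. Zbtb46 was higher in all NP+ libraries, at 47.4 to 50.5 against 20.8 to 31.6 CPM, as were 13.3% of all genes. The other dendritic markers overlapped between the fractions. Promoter sequences are RefSeq's, on GRCm38.p6. Of the 35 genes, 14 share exon bases with another gene of the count files, and 3 share over 10% (Ifi35 16.8%, Rtp4 13.9% and Gbp7 11.3%).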

Additional observations from a re-analysis of the deposited data

How the results depend on the processing

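In each of the 18 alternatives run, 0 of the 35 genes had an adjusted p under 0.05, and the lowest was 0.0603. The replicate block gave 15 genes called over all, 2 members higher and 1 lower at an unadjusted p under 0.05, against 7.85% and 14.6% of all genes. For most of the fits below, the share of all genes at that unadjusted threshold is not given. Their counts of members higher or lower are therefore not read as results about these genes. DESeq2 called 4123 genes, with 5 members higher. Upper-quartile and total-count scaling called 21 and 11 genes, with 0 members higher and member medians of 0.010 and -0.034. Without a low-count filter 1211 genes were called, 9 members were higher and 14 intervals lay within 2-fold. With at least 5 CPM in 3 libraries 105 genes were called, 0 members were higher and the median was 0.00033; adding the replicate block gave 227, 0 and -0.013. Mx1 had no value under that filter. With both libraries of MET-106 left out, 0 genes were called, 7 members were higher and the median was 0.50. The values were 0, 0 and -0.017 without those of MET-107, and 1, 8 and 0.37 without those of MET-108. Intervals within 2-fold then numbered 12, 18 and 11. Without each library in turn, genes called ran from 0 to 2320, members higher from 0 to 9 and lower from 0 to 1, and intervals within 2-fold from 7 to 21. The cause of these moves was not tested, other than the fewer libraries or genes of each fit. Reads carry no molecular identifiers, so depth limits cover counting error only.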
